A study of Homo sapiens with 6 samples.

Results

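A set of 8 genes that human genetics and earlier work on the microRNA miR-137 tie to schizophrenia was followed in neuroblastoma cells after knockdown of GOMAFU, a long non-coding RNA whose gene symbol in the table is MIAT. The genes are MIR137HG, NRG1, ERBB4, CACNA1C, CSMD1, DISC1, TCF4 and ZNF804A, chosen by symbol and not by their values. Earlier results of these data were known when they were chosen. All 8 are present among the 26372 genes of the deposited table. Polyadenylated RNA of BE(2)-M17, an established human neuroblastoma line, was sequenced in 3 libraries labelled GOMAFU knockdown and 3 labelled control, numbered 2, 3 and 4 in both groups. The labels describe a lipid-based transfection with 100 pmol of small RNA, and state neither the sequence used against GOMAFU nor what the control cells received. Whether each replicate was its own culture is not stated either, so every p-value reflects only how far these libraries vary, which may be technical variation.

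As background, miR-137 is a brain-enriched microRNA that is cut from the transcript of its host gene, MIR137HG, and pairs through its seed with sites in the 3′ untranslated regions of messenger RNAs, which lowers their stability or translation. Common variants near MIR137HG are associated with schizophrenia. TCF4, CACNA1C, CSMD1, ZNF804A and ERBB4 have been reported among the targets of the microRNA. The set also draws on neuregulin signalling, in which NRG1 is a ligand of the receptor ERBB4. It further holds DISC1, which encodes a scaffold protein and was found disrupted in a family with psychiatric illness. GOMAFU is a nuclear RNA of neurons whose level has been reported as altered in schizophrenia.

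The sequences given here are those of the microRNA and of its matches in members of the set, which was itself chosen by symbol. The mature microRNA and its hairpin, from RefSeq (GRCh38.p14), lie on the minus strand at chr1:98046091-98046113 and chr1:98046070-98046171. The hairpin lies in an exon of 3 of the 6 annotated MIR137HG transcripts. Capitals mark the seed (bases 2 to 8) in the first line and the mature sequence within the hairpin in the second line.
hsa-miR-137-3p: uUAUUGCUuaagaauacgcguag
MIR137 hairpin: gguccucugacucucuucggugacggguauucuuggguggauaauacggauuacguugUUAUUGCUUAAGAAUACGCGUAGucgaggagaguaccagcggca

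Matches to the seed were looked for in the longest 3′ untranslated region annotated for each protein-coding member (GENCODE release 29, GRCh38). The motif AGCAATA pairs with bases 2 to 8, and GCAATAA pairs with bases 2 to 7 and ends with an A opposite base 1. The 2 motifs overlap in AGCAATAA, and only the transcript strand was read. The matches in TCF4, ZNF804A, CACNA1C and ERBB4 are shown to let the reader compare the letters beside them, each in capitals at or near the 3′ end of a window of 30 bases, 5′ to 3′; those in NRG1 and CSMD1 are given as counts.
TCF4 first match: aatttaaaaaaaattgtaaacttGCAATAA
TCF4 second match: gtcatgtacatgaccgttctgtAGCAATAa
ZNF804A match: aaattcagtgaaaaatatctcttGCAATAA
CACNA1C match: cccacaagatatgcaaaaacaatGCAATAA
ERBB4 match: ctccattttggattttgaatcaAGCAATAt

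These windows lie at chr18:55227614-55227643 and chr18:55223470-55223499 (TCF4, minus strand), chr2:184939439-184939468 (ZNF804A, plus strand), chr12:2692583-2692612 (CACNA1C, plus strand) and chr2:211382467-211382496 (ERBB4, minus strand). TCF4 therefore held 1 match to bases 2 to 8, which is followed by an A, and 1 further match to bases 2 to 7 in 5704 bases. ZNF804A held 1 match of the shorter kind in a region of only 466 bases, a kind found in 4.99% of genes whose 3′ untranslated region is within 20% of that length. The shares for the longer regions were higher, at 35.7% for the shorter kind around the length of CACNA1C (6751 bases) and 41.9% for AGCAATA around that of ERBB4 (7898 bases). For AGCAATA around the length of TCF4 the share was 32.4%. NRG1 held 1 match to AGCAATA, followed by an A, and 1 further match of the shorter kind in 3557 bases, where 22.1% of regions of like length hold AGCAATA. CSMD1 held 1 match of the shorter kind in 3232 bases, and the 5545 bases of DISC1 held neither motif. Among all 19132 protein-coding genes with such a region, 11.4% held AGCAATA and 11.7% held GCAATAA. The 23 annotated MIAT transcripts held neither motif, and 1 of the 6 MIR137HG transcripts, of 3586 bases, held AGCAATA once. A match is a stretch of letters, and binding was not measured.

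The knockdown was checked first. MIAT was measured at 1.27, 1.32 and 3.21 FPKM in knockdown replicates 2, 3 and 4, against 5.38, 5.96 and 8.57 FPKM in the controls. FPKM is the number of sequenced fragments scaled to transcript length and to the mapped total of the library. No knockdown value reached the lowest control, and MIAT averaged 29.2% of its control level. The difference on the log2(FPKM + 1) scale was -1.42 (SE 0.27), with the smallest unadjusted p of all 12164 genes tested (0.00125). The exact two-sided permutation test gave p = 0.1, the smallest that 3 against 3 allows, and after Benjamini-Hochberg adjustment over all genes limma gave 0.9998.

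Facts of the libraries that touch the members are few. The smallest steps of the low values show that 1 fragment on a transcript of 1 kb is worth between 0.0507 and 0.07 FPKM in the different libraries, from which the fragments behind a low value were estimated. One library stands apart: across genes, knockdown replicate 4 correlated with the other 5 at 0.94 to 0.956, while those 5 correlated with one another at 0.983 or more. The summed level of 25 interferon response genes was 538, 84.8 and 11973 FPKM in knockdown replicates 2, 3 and 4, against 46.1 to 53.5 FPKM in the controls. Of the 24 tested, 20 (83.3% of them) had knockdown values above all controls, beside 4.01% of all 12164 genes tested. Some of the 24 reached the tested level, a mean of 1 FPKM, only through knockdown replicate 4. XAF1, for example, stood at 23.1 FPKM there and at no more than 0.129 FPKM elsewhere. The filter thus favours genes high in that library, and the shares are not on equal terms. The line showed its neuroblastoma markers MYCN (1710 to 2169 FPKM), HAND2 (515 to 606 FPKM) and GATA3 (141 to 203 FPKM), whereas TH reached at most 0.0872 FPKM. Of 12 markers of cortical neurons, SLC17A6, GAD2 and NEUROD6 were listed at 0 in all libraries, while SNAP25 (89.5 to 123 FPKM) and SYT1 (29.6 to 34 FPKM) made up most of the list's sum. The summed level of the 16 neuroblastoma markers was 5675 to 6150 FPKM in knockdown libraries and 6564 to 6775 FPKM in controls, without overlap. That sum rests mostly on MYCN and CHGA, which averaged 2002 and 1526 FPKM over the 6 libraries. Of the 14 markers tested, 2 had groups without overlap (14.3%, beside 8.36% of all genes). Of the same 14, 11 were fitted below 0 and 3 above. The sums overlapped for the cortical neuron markers, at 121 to 146 FPKM with knockdown and 128 to 157 FPKM in controls, for the fibroblast markers, at 440 to 537 and 450 to 541 FPKM in the same groups, and for the glial markers, at 4.98 to 8.14 and 4.71 to 5.03 FPKM. The part of these shifts in the members' values was not tested.

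In the order of their mean over the 6 libraries they were TCF4 at 56.8 FPKM, ZNF804A at 9.61, DISC1 at 1.73, NRG1 at 1.2, MIR137HG at 0.929, ERBB4 at 0.0465, CACNA1C at 0.00773 and CSMD1 at 0 FPKM. TCF4 lay above 94.3% of all listed genes and above 87.7% of the 12164 genes that averaged 1 FPKM or more, and ZNF804A above 43.3% of them. Each of the first 2 stood apart from its next neighbour in all 6 libraries, with no overlap of the ranges. DISC1 and NRG1 overlapped in range although DISC1 was the higher in all 6 libraries, and NRG1 and MIR137HG were not separable, with NRG1 higher in 5 of 6. MIR137HG stood 20-fold above ERBB4, ERBB4 exceeded CACNA1C in all 6 libraries, and in neither pair did the ranges overlap. The order was the same after scaling the libraries to a common upper quartile.

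**Figure D1:**
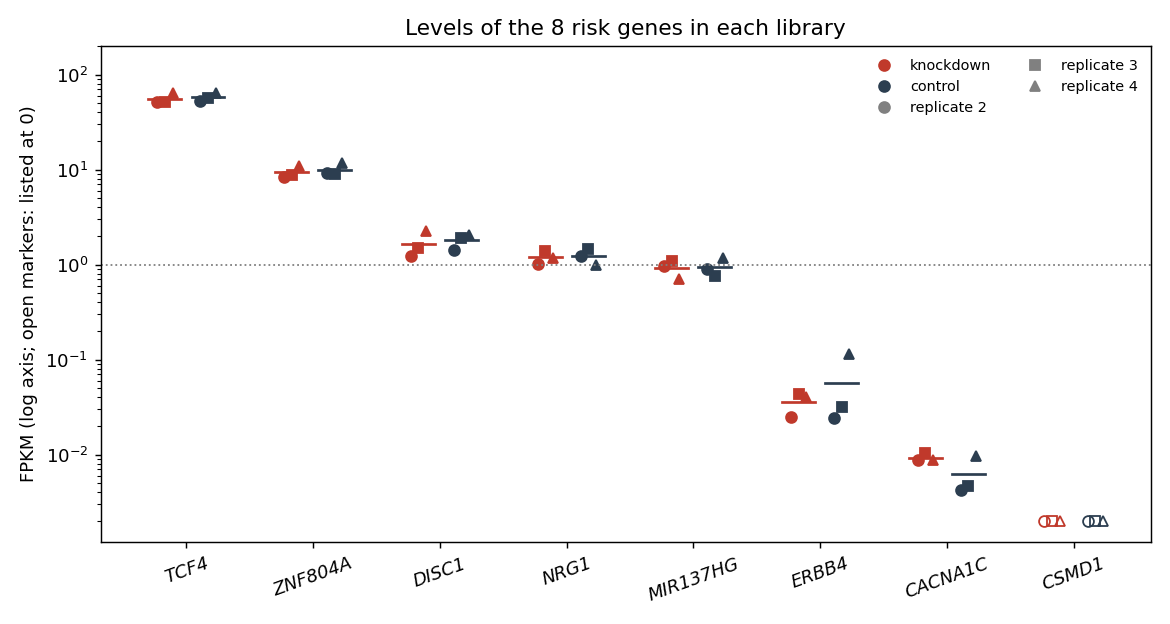
FPKM on a log axis for each of the 8 genes, with knockdown libraries in red at the left and control libraries in dark blue at the right of each gene; marker shapes are replicate numbers, horizontal bars are group means, open markers are values of 0 drawn at the foot, and the dotted line is 1 FPKM. For no gene do the 2 groups separate, and CSMD1 is listed at 0 in all 6 libraries.

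Of the 8 members 4 were tested, and none of them passed the threshold, which MIAT itself did not pass either (limma, adjusted p = 0.9998). TCF4, ZNF804A, DISC1 and NRG1 averaged 1 FPKM or more and were tested with limma, where 0 of the 4 passed an adjusted p of 0.05, as did 0% of all 12164 genes. At an unadjusted p under 0.05 there were 0 of 4 members, beside 2.16% of all genes. Their differences lay between -0.08 and -0.02 on the log2(FPKM + 1) scale, beside a median of -0.0081 over all genes. All 4 were fitted below 0, as were 53.3% of all genes, while 46.7% were fitted above 0. With library weights in limma, the unadjusted p was 0.0117 for DISC1 and 0.0254 for TCF4, and no member passed after adjustment (adjusted p = 0.118 and 0.160). In none of the 7 members measured above 0 were the groups free of overlap. Among all 18663 genes above 0, 7.74% had no overlap, 4.02% above and 3.72% below their controls, and 7 genes are too few to differ from that share. The other members, MIR137HG, ERBB4, CACNA1C and CSMD1, did not reach the level at which genes were tested, and their values are given with exact permutation tests, for which p cannot go below 0.1.

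MIR137HG (chr1:97933474-98049863, minus strand), the host gene of miR-137, was measured at 0.959, 1.09 and 0.708 FPKM in knockdown replicates 2, 3 and 4 and at 0.889, 0.752 and 1.18 FPKM in the controls. Knockdown replicate 4 was the lowest of all 6 libraries and control replicate 4 the highest, and the groups overlapped throughout. The means were 0.919 ± 0.193 FPKM with knockdown and 0.939 ± 0.216 FPKM in controls (SD, n = 3 each), a knockdown mean of 97.8% of the control mean (exact two-sided permutation test, p = 0.9). These values rest on an estimated 39 to 77 fragments per library. They are values of the whole gene, and only some of its annotated transcripts hold the hairpin. The longest, of 3586 bases, on which the fragment estimate rests, does not. The level of the transcripts that hold the hairpin was not measured apart from the others. Without the filter on low values the difference was -0.01 on the log2(FPKM + 1) scale with a 95% interval of -0.30 to 0.27 (limma, adjusted p = 1). It was 0.15 without both libraries numbered 4. The rows of MIR137 and MIR2682, the microRNAs within this host, were listed at 0 in all libraries. These libraries were made from polyadenylated RNA, and the mature microRNA was not measured. DPYD, an annotated neighbour that overlaps MIR137HG on the same strand and encodes a pyrimidine-degrading enzyme, stood at 1.42, 1.11 and 3.47 FPKM with knockdown and 1.46, 1.84 and 1.79 FPKM in controls.

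NRG1 (chr8:31639386-32767959, plus strand), the neuregulin ligand whose cleaved domain activates ERBB receptors, was measured at 1.01, 1.38 and 1.18 FPKM in knockdown replicates 2, 3 and 4 and at 1.22, 1.46 and 0.981 FPKM in controls. Replicate 3 was the highest in each group, and the lowest and the highest of the 6 values were both controls. The difference was -0.02 on the log2(FPKM + 1) scale (SE 0.14, 95% interval -0.36 to 0.32; limma, adjusted p = 0.9998). It was 0.04 without knockdown replicate 2 and 0.06 without control replicate 3. The other neuregulin genes lay on both sides of it. NRG2 was the highest of the family at 7.42 ± 3.37 FPKM with knockdown and 5.81 ± 0.269 FPKM in controls, its knockdown mean being carried by 11.3 FPKM in replicate 4. NRG4 stood at 1.65 ± 0.71 FPKM with knockdown and 1.5 ± 0.364 FPKM in controls (SD, n = 3 each).

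NRG3 was the family member whose groups did not overlap. It was measured at 0.297, 0.268 and 0.289 FPKM in knockdown replicates 2, 3 and 4, against 0.164, 0.162 and 0.166 FPKM in the controls. The knockdown mean was 1.74 times the control mean, from an estimated 16 to 19 fragments per knockdown library and 8.3 to 9.3 per control library. NRG3, a ligand of ERBB4, lay below the level tested. In the fit without that filter its difference was 0.14 on the log2(FPKM + 1) scale (unadjusted p = 0.00288; limma, adjusted p = 1), and the exact permutation test gave p = 0.1, its smallest value. Above the controls without overlap lay 4.02% of the 18663 genes above 0.

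ERBB4 (chr2:211375717-212538841, minus strand), the receptor tyrosine kinase that binds neuregulins in neurons, was near the floor of the table. It was measured at 0.0248, 0.0431 and 0.04 FPKM in knockdown replicates 2, 3 and 4 and at 0.0243, 0.0319 and 0.115 FPKM in controls. Control replicate 4 was the highest, and the remaining 5 libraries lay within 0.0243 to 0.0431 FPKM. These values correspond to an estimated 4.7 to 20 fragments per library. The means were 0.036 ± 0.00982 FPKM with knockdown and 0.057 ± 0.0502 FPKM in controls (SD, n = 3 each; exact two-sided permutation test, p = 0.9), so a difference was not detectable at this depth. Of the other receptors of the family, EGFR was the most abundant, at 5.62 ± 1.59 FPKM with knockdown and 5.9 ± 0.657 FPKM in controls. ERBB2, the partner receptor without a ligand of its own, stood at 0.758 ± 0.336 FPKM with knockdown and 0.6 ± 0.215 FPKM in controls. ERBB3 stood at 0.114 ± 0.0565 FPKM with knockdown and 0.0454 ± 0.0407 FPKM in controls.

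The wider neuregulin and ERBB list showed no call. Of its 36 genes 23 were tested and 0 passed, 17 were fitted above 0 and 6 below, and the median difference was 0.041 beside -0.0081 for all genes. Among the 23 tested, the sheddase ADAM10 alone had groups without overlap (4.35%, beside 8.36% of all genes tested). Of all genes tested, 4.01% lay above and 4.35% below their controls. NRG3 is in the same list but lay below the level tested. ADAM10 stood at 20.1, 19.1 and 20.6 FPKM in knockdown replicates 2, 3 and 4 and at 16.9, 18.4 and 19 FPKM in controls (log2 difference 0.13, unadjusted p = 0.121, limma). The protease BACE1, which also processes neuregulins, stood at 17.5 FPKM in both groups on average. The most abundant members were the adaptor SHC1 at 153 ± 29 FPKM with knockdown and 166 ± 17.5 FPKM in controls and the gamma-secretase subunit APH1A at 128 ± 4.22 and 124 ± 5.39 FPKM in the same groups (SD, n = 3 each).

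**Figure D2:**
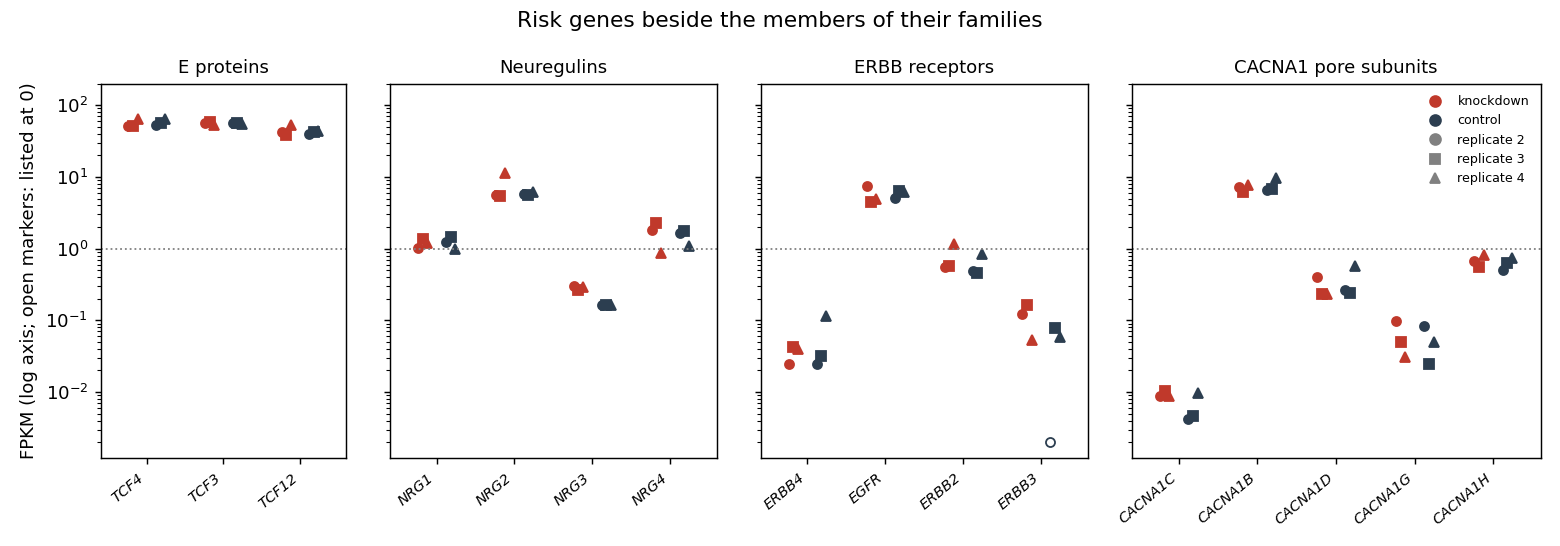
FPKM on a log axis for TCF4, NRG1, ERBB4 and CACNA1C beside other members of their families, with knockdown libraries in red at the left and control libraries in dark blue at the right of each gene; marker shapes are replicate numbers, open markers are values of 0, and the dotted line is 1 FPKM. NRG3 is the gene whose 3 knockdown values (0.268 to 0.297 FPKM) lie above its 3 control values (0.162 to 0.166 FPKM), while ERBB4 and CACNA1C lie far below EGFR and CACNA1B.

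CACNA1C (chr12:1970786-2697950, plus strand), which encodes the pore subunit of a voltage-gated L-type calcium channel, was present only as traces. It was measured at 0.00871, 0.0103 and 0.00879 FPKM in knockdown replicates 2, 3 and 4 and at 0.00426, 0.00466 and 0.00961 FPKM in controls. With the longest annotated transcript of 13433 bases, these values amount to about 0.91 to 2.7 fragments per library, under the 3 fragments below which no fold is given. The exact two-sided permutation test gave p = 0.3. DCP1B, a decapping factor gene that overlaps CACNA1C on the opposite strand, stood at 6.55 to 9.98 FPKM. Use of strand in the counting is not stated, so stray fragments of DCP1B cannot be told apart from those of CACNA1C. The channel pore gene with the highest level was CACNA1B, of the N type, at 7.3, 6.09 and 7.8 FPKM with knockdown and 6.52, 6.71 and 9.62 FPKM in controls. The other L-type gene of the nervous system, CACNA1D, stood at 0.292 ± 0.0984 FPKM with knockdown and 0.357 ± 0.179 FPKM in controls (SD, n = 3 each), above CACNA1C in all 6 libraries. CACNA1H, of the T type, stood at 0.681 ± 0.13 and 0.624 ± 0.117 FPKM in the same groups, and CACNA1A, CACNA1E and CACNA1S were listed at 0 throughout.

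The most abundant genes of the calcium channel list encode auxiliary subunits. CACNG4, a gamma subunit gene, stood at 130 ± 10.2 FPKM with knockdown and 138 ± 11.7 FPKM in controls (SD, n = 3 each). CACNA2D2, an alpha-2-delta subunit gene, was measured at 44.7, 46.8 and 49.8 FPKM in knockdown replicates 2, 3 and 4 and at 50.6, 52.2 and 56 FPKM in controls. All 3 knockdown values lay below all 3 controls, the sole such gene of the 9 tested in this list (11.1% without overlap, beside 8.36% of all genes), and the log2 difference was -0.16 (SE 0.08, unadjusted p = 0.0687; limma, adjusted p = 0.9998). Of the 9, 7 were fitted below 0 and 0 passed the threshold, with a median of -0.083 on the log2(FPKM + 1) scale. CACNB1, a beta subunit gene, had the smallest p among those above 0, with a difference of 0.04. The remaining 17 of the 26 genes were below the level tested, 6 of them at 0 in all libraries.

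CSMD1 (chr8:2935353-4994972, minus strand), a large membrane protein with complement-control repeats that is thought to restrain complement at synapses, was listed at 0 FPKM in all 3 knockdown and all 3 control libraries. At the estimated depth, a limit of 3 fragments on its longest transcript (13512 bases) allows up to 0.0112 to 0.0155 FPKM in a library, a limit that covers counting error alone. None of 20 housekeeping genes and none of 73 ribosomal protein genes was listed at 0 in any library. Its paralog CSMD3 was also listed at 0, and CSMD2 reached 0.0181 FPKM at most. Of the 40 genes in the list of CSMD and complement genes 7 were tested, 0 passed and 0 had groups without overlap, beside 8.36% of all genes. The complement inhibitor CD46 stood at 61.4 ± 5.59 FPKM with knockdown and 66 ± 4.74 FPKM in controls, and CLU, which encodes clusterin, at 24.7 ± 2.18 and 25 ± 1.78 FPKM in the same groups (SD, n = 3 each). SERPING1, the inhibitor of the first complement component, reached 9.34 FPKM in knockdown replicate 4, against 0.0721 to 0.203 FPKM in the other libraries.

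DISC1 (chr1:231626815-232041272, plus strand), a scaffold for proteins of the centrosome, of microtubule transport and of cyclic AMP breakdown, was the most variable of the tested members. It was measured at 1.22, 1.51 and 2.26 FPKM in knockdown replicates 2, 3 and 4 and at 1.41, 1.92 and 2.06 FPKM in controls. The lowest and the highest of the 6 libraries were both knockdown libraries, and in both groups replicate 4 was the highest and replicate 2 the lowest. The means were 1.67 ± 0.535 FPKM with knockdown and 1.8 ± 0.344 FPKM in controls (SD, n = 3 each). The log2 difference was -0.08 (SE 0.18, 95% interval -0.51 to 0.35; limma, adjusted p = 0.9998). It was 0.04 without knockdown replicate 2, -0.23 without knockdown replicate 4 and -0.32 with library weights (unadjusted p = 0.0117, adjusted p = 0.118).

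The readthrough transcript TSNAX-DISC1, which joins DISC1 to its upstream neighbour, was measured at 0.353, 0.0907 and 0.391 FPKM in knockdown replicates 2, 3 and 4, against 0.0311, 0 and 0.0839 FPKM in controls. The groups did not overlap, as for the 4.02% of genes above 0 that lay above their controls. The estimate is 6.4 to 21 fragments per knockdown library and at most 4.3 per control library. The difference without the filter was 0.29 on the log2(FPKM + 1) scale (unadjusted p = 0.0234; limma, adjusted p = 1), and the exact permutation test gave p = 0.1. Reads of this transcript are shared with DISC1 and TSNAX, and the division between them is the authors' software's estimate. TSNAX itself, which encodes translin-associated factor X, stood at 37.5 ± 0.969 FPKM with knockdown and 38.5 ± 1.59 FPKM in controls (SD, n = 3 each).

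Among 37 genes of DISC1 and its reported binding partners 30 were tested and 0 passed, with 21 fitted below 0, 9 above 0 and a median of -0.048. Groups did not overlap for 5 of the 30, or 16.7%, beside 8.36% of all genes; no test of that share was made. ATF4, the stress-response transcription factor that binds DISC1, was measured at 353, 374 and 395 FPKM in knockdown replicates 2, 3 and 4 and at 438, 402 and 426 FPKM in controls (log2 difference -0.18, SE 0.08, unadjusted p = 0.0581, limma). The other 3 below their controls were CTNNB1, which encodes beta-catenin, CCDC88A, an actin-binding protein, and the dynactin subunit DCTN1, at differences of -0.07, -0.14 and -0.09. RHOT1, a mitochondrial transport GTPase, lay above its controls by 0.09. The dynein regulators NDE1, NDEL1 and PAFAH1B1 differed by -0.11, 0.05 and 0.04, with overlapping groups. ATF5 stood at 6.42 ± 0.551 FPKM with knockdown and 5.54 ± 0.556 FPKM in controls, and YWHAE at 357 ± 37.1 and 374 ± 14.3 FPKM in the same groups (SD, n = 3 each).

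TCF4 (chr18:55222331-55664787, minus strand), a basic helix-loop-helix E protein that pairs with neurogenic partners and is mutated in Pitt-Hopkins syndrome, was the most abundant member. It was measured at 51.1, 51.8 and 64 FPKM in knockdown replicates 2, 3 and 4 and at 53.1, 57.2 and 63.3 FPKM in controls. Knockdown replicate 4 was the highest of all 6 libraries and knockdown replicate 2 the lowest, so the control values fell inside the knockdown range. The means were 55.7 ± 7.25 FPKM with knockdown and 57.8 ± 5.13 FPKM in controls (SD, n = 3 each), so that TCF4 with knockdown averaged 96.2% of its control level. The fitted log2 difference was -0.06 (SE 0.11, 95% interval -0.33 to 0.21; limma, adjusted p = 0.9998). It was -0.16 without knockdown replicate 4 and 0.0075 without control replicate 4.

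Of the other E proteins, TCF3 lay near TCF4 in level and TCF12 below it in all 6 libraries. TCF3 stood at 55.8 ± 2.83 FPKM with knockdown and 56.1 ± 0.958 FPKM in controls, and TCF12 at 44.3 ± 6.96 and 41.7 ± 1.77 FPKM in the same groups (SD, n = 3 each; adjusted p = 0.9998 for both, limma). The partner with the highest level was HAND2, a transcription factor of the sympathetic lineage, at 553 ± 47.5 FPKM with knockdown and 541 ± 21.6 FPKM in controls. TWIST1 stood at 170 ± 25 and 163 ± 10.8 FPKM in the same groups. ID3, which encodes an inhibitor that binds E proteins, was measured at 92.4, 87.3 and 81.8 FPKM with knockdown and 84.5, 75.6 and 51.3 FPKM in controls, and control replicate 2 lay above knockdown replicate 4 (log2 difference 0.33, unadjusted p = 0.106, limma). Of 12 tested genes of the 30 in this list 0 passed and 0 had groups without overlap, beside 8.36% of all genes, with a median difference of 0.034.

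ZNF804A (chr2:184598366-184939492, plus strand), a zinc finger protein whose gene was an early genome-wide finding in schizophrenia, was measured at 8.39, 8.76 and 10.8 FPKM in knockdown replicates 2, 3 and 4 and at 9.2, 8.88 and 11.7 FPKM in controls. Replicate 4 was the highest of each group, and knockdown replicate 4 lay above control replicates 2 and 3. The means were 9.31 ± 1.29 FPKM with knockdown and 9.92 ± 1.53 FPKM in controls (SD, n = 3 each), so that ZNF804A with knockdown averaged 93.9% of its control level. The fitted log2 difference was -0.08 (SE 0.13, 95% interval -0.39 to 0.23; limma, adjusted p = 0.9998), and 0.03 without control replicate 4. Its paralog ZNF804B was listed at 0 throughout. GPATCH8, a related gene, stood at 24.7 ± 1.29 FPKM with knockdown and 22.6 ± 1.12 FPKM in controls (log2 difference 0.12, unadjusted p = 0.155, limma).

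**Figure D3:**
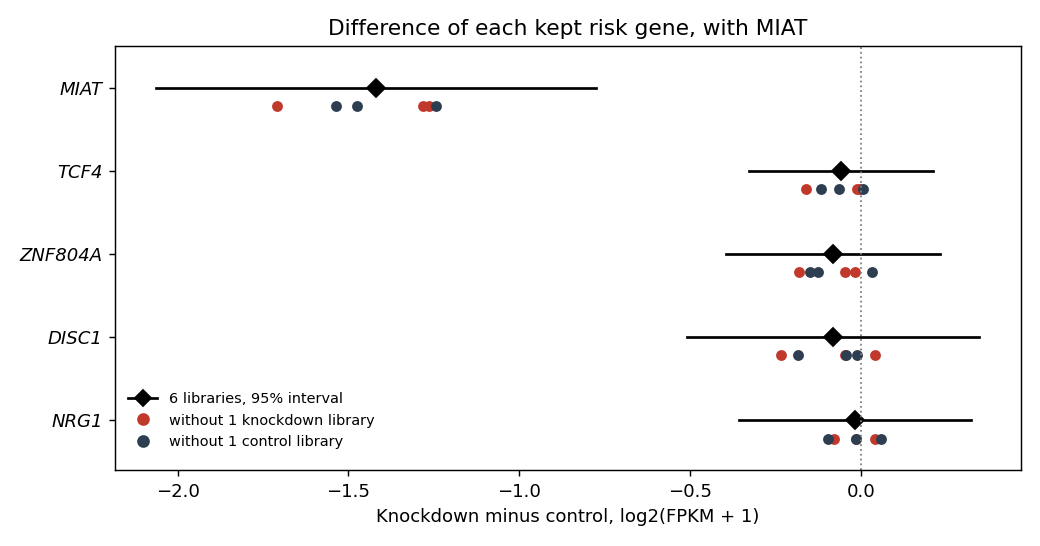
Knockdown minus control on the log2(FPKM + 1) scale for MIAT and the 4 members tested; diamonds and lines are the difference and its 95% interval from limma with all 6 libraries, and dots are the difference with 1 knockdown library (red) or 1 control library (dark blue) left out. The intervals of TCF4, ZNF804A, DISC1 and NRG1 include 0 and each has at least 1 dot above 0, whereas that of MIAT runs from -2.06 to -0.78.

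TCF4, ZNF804A and DISC1 were highest in replicate 4 of both groups, as was MIAT, a pattern shown by 26.1% of the 12164 genes tested. NRG1 and MIR137HG were not. From the lowest to the highest library TCF4 ranged over 0.32, ZNF804A over 0.43, DISC1 over 0.55 and NRG1 over 0.31 on the log2(FPKM + 1) scale, a spread that takes in both groups. Knockdown replicate 4 carried the interferon response genes at 11973 FPKM in sum, and control replicate 4 carried 46.1 FPKM. The part of the interferon response genes in the members' values was not tested.

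**Figure D4:**
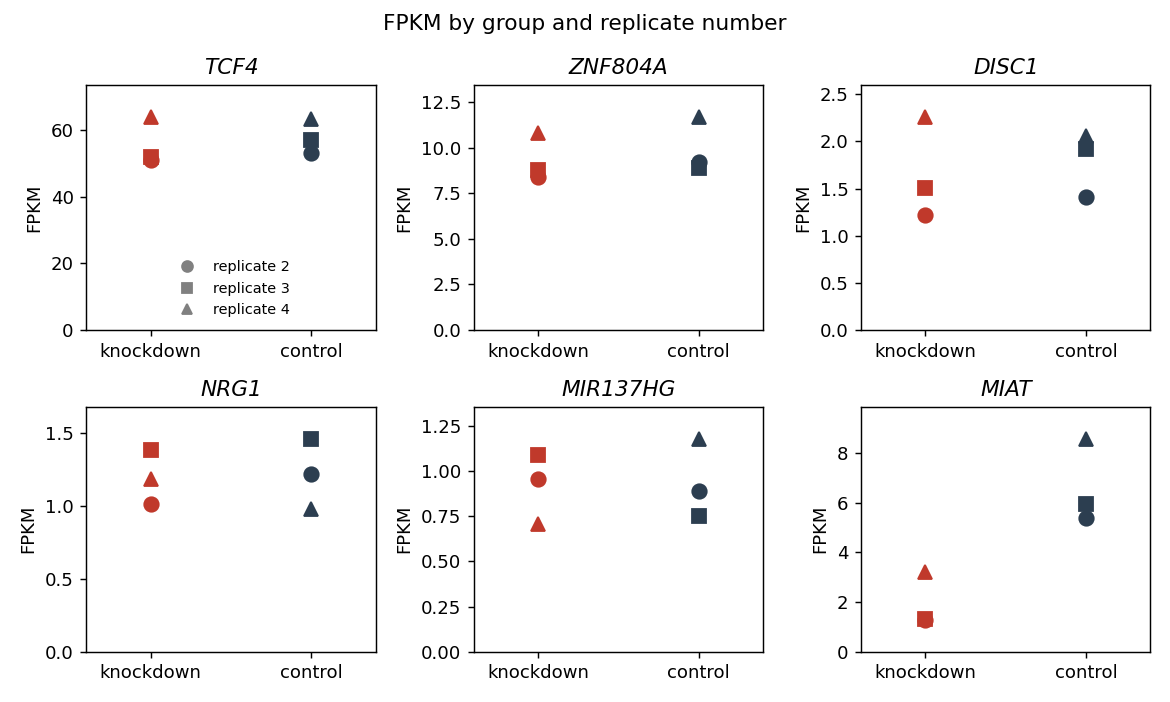
FPKM of 5 members and MIAT by group, knockdown in red at the left and control in dark blue at the right, on linear axes from 0; marker shapes are replicate numbers. Replicate 4 (triangles) is the highest of its group for TCF4, ZNF804A, DISC1 and MIAT in both groups, and MIAT is the gene whose groups do not overlap.

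The genes with the most similar profiles over the 6 libraries were found by the root mean square distance between centred log2(FPKM + 1) values, among genes that vary at least 0.8 times as much. SNAP25, which encodes a synaptic vesicle fusion protein, was nearest to ZNF804A at a distance of 0.012, beside a median of 0.25 over 6205 candidates. SNAP25 was measured at 89.5, 92.9 and 111 FPKM with knockdown and 97.6, 95.1 and 123 FPKM in controls. IGLON5, a neuronal adhesion protein gene, followed at 0.024. C11orf54 and CEP44 were nearest to TCF4 at 0.018 each, SERPINB6 and CCNC to NRG1 at 0.028 each, and C7orf60 and ERCC5 to DISC1 at 0.048 and 0.054. With 6 libraries and 4121 to 8969 candidates per member, a close profile is no sign of a link.

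The reported miR-137 targets were followed as a list. Of 45 reported targets 33 were tested and 0 passed, with 16 fitted above 0, 17 below and a median of -0.0008 beside -0.0081 for all genes. Groups did not overlap for 2 of them, SLC22A17 and KLF4 (6.06%, beside 8.36% of all genes). NRG3, also in this list, lay below the level tested, and its groups did not overlap either. The 33 include the members TCF4 and ZNF804A. SLC22A17, a lipocalin receptor gene, stood at 19.7, 21.7 and 23.4 FPKM in knockdown replicates 2, 3 and 4 and at 23.6, 24.1 and 24.9 FPKM in controls (log2 difference -0.16, unadjusted p = 0.0957, limma). KLF4, a transcription factor, reached 9.93 FPKM in knockdown replicate 4, against 0 to 0.343 FPKM in the other libraries. Its mean reached the level tested through that library alone. The most abundant of the list, CSE1L and CTBP1, differed by -0.10 and 0.03. MIB1, an E3 ligase of the Notch pathway, stood at 6.39 FPKM with knockdown and 6.68 FPKM in controls on average, and WBP1L at 8.41 and 7.6 FPKM in the same groups.

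Of 61 other schizophrenia risk genes 40 were tested and 0 passed, with 22 fitted above 0, 18 below and a median of 0.015. Groups did not overlap for 3 of them (7.5%, beside 8.36% of all genes), all below their controls, where 4.35% of all genes lay. AS3MT, an arsenic methyltransferase gene from a risk locus, was measured at 11.9, 13.1 and 11 FPKM with knockdown and 13.9, 13.9 and 13.7 FPKM in controls (log2 difference -0.19, SE 0.08, unadjusted p = 0.0549, limma). CYFIP1, a regulator of actin and of translation, and MAD1L1, a spindle checkpoint protein, were the others, at -0.12 and -0.09. RGS4, which encodes a brake on G protein signalling, was the most abundant of the list and stood highest in replicate 4 of both groups, at 123, 124 and 382 FPKM with knockdown and 143, 136 and 229 FPKM in controls. CHRNA3, a nicotinic receptor subunit gene, stood at 61.9 ± 12.2 FPKM with knockdown and 59.9 ± 8.26 FPKM in controls (SD, n = 3 each). RERE, a transcriptional corepressor gene, differed by 0.15, and DRD2, the dopamine receptor gene, stood at 4.36 FPKM with knockdown and 5.14 FPKM in controls on average.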

How the data were processed

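Per the submitters' processing notes, the deposited FPKM values came from TopHat2 and Cuffdiff on the hg38 build; their versions and the annotation are not stated. The deposited FPKM are relative to each library's mapped total, so a large gain in some transcripts reduces the values of the rest, and tests made for counts were not used. The 12164 genes averaging 1 FPKM or more were compared as log2(FPKM + 1), knockdown minus control, with limma 3.58.1 in R 4.3.3 (intensity trend, two-sided, no covariate), with Benjamini-Hochberg adjustment over the whole set. The steps were tested on simulated data. Members with lower values got exact permutation tests (SciPy 1.17.1). Fragments behind low values were estimated from single-transcript genes of at least 1500 bases and each gene's longest GENCODE release 29 transcript, so they are approximate where isoforms differ.

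The members and the gene lists were chosen with earlier results of these data known. Of 355 list entries, 353 matched by symbol and 2 by an older symbol. Genes named besides the members are paralogs, overlapping transcripts, and per list the 2 most abundant and those with the smallest p above and below 0. Other genes, among them those of a list whose groups did not overlap, BACE1, NDE1, NDEL1, PAFAH1B1, MIB1, WBP1L and DRD2, were named after their values were seen. Some genes that this rule names are not reported here.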

Additional observations from a re-analysis of the deposited data

How the results depend on the processing

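The alternatives were other pseudocounts, no filter on low values, a minimum mean of 5 FPKM, quantile normalization, scaling to the upper quartile, no trend, weights per library, a block on the replicate number, each library left out in turn, and both libraries numbered 4 left out. In all 16 of them 0 members passed the threshold. The count of all genes past it, 0, was 22 with library weights and 1 without both libraries numbered 4, and 0 in the other 14. MIAT passed in those same 2 settings, at -1.58 (adjusted p = 0.0030) and -1.54 (adjusted p = 0.0118), and lay between -1.71 and -1.24 without 1 library. The weights, 7.98 for control replicate 3, 3.34 for knockdown replicate 2 and 0.153 for knockdown replicate 4, come from the same libraries. The sign turned for NRG1 without knockdown replicate 2 (0.041) and without control replicate 3 (0.059), for DISC1 without knockdown replicate 2 (0.042), for TCF4 without control replicate 4 (0.0075) and for ZNF804A without control replicate 4 (0.032). Over the libraries left out in turn, NRG1 lay between -0.10 and 0.059, DISC1 between -0.23 and 0.042, TCF4 between -0.16 and 0.0075 and ZNF804A between -0.18 and 0.032. With library weights NRG1 was at -0.21, DISC1 at -0.32 and TCF4 at -0.14, with adjusted p of 0.118 to 0.221, and MIR137HG was at 0.15. Pseudocounts of 0.1 and 0.01 moved ERBB4 to -0.16 and -0.32 and CACNA1C to 0.04 and 0.27. Both genes lie far below the main pseudocount of 1, which shrinks any difference between such low values. For CACNA1C the values rest on 0.91 to 2.7 estimated fragments per library, so they are not read as a fold. The cause of the other shifts was not tested. Same-numbered libraries deviated together at r = 0.092, 0.168 and 0.322 for numbers 2, 3 and 4 over 12164 genes, so the numbers were not taken to pair them. Not every library correlated best with its own number, as knockdown replicate 3 was closest to control replicate 2 (r = 0.318). The libraries numbered 4 had the highest r of all. Their r with differently numbered libraries of the other group lay between -0.336 and -0.193. With the replicate block the count stayed at 0 and MIAT had an adjusted p of 0.194 (limma). With 1 library of each group per number, this block cannot alter a difference, so those of the members stayed the same by design. The SE can alter: ZNF804A, at -0.08, had an SE of 0.074 with the block and 0.13 without (adjusted p = 0.902 with the block, limma). For TCF4, DISC1 and NRG1 the SE was 0.068, 0.125 and 0.133 with the block, and 0.11, 0.18 and 0.14 without. Genes at an unadjusted p under 0.05 numbered 520 with the block and 263 without. At 6 libraries the intervals of the members still reach 0.33 to 0.51 in size on the log2(FPKM + 1) scale, and ERBB4, CACNA1C and CSMD1 lie too low for a comparison.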

Other observations

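Among tested protein-coding genes with an annotated 3′ untranslated region, the 1468 whose longest region holds AGCAATA had a median difference of 0.0021 on the log2(FPKM + 1) scale, with 49.4% below 0. The 9513 without that motif had a median of -0.0103, with 54% below 0. The 39 with at least 3 copies had a median of -0.0168. No test was made of these medians, and the share of regions that hold the motif is higher among longer ones.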
